A study of Mus musculus with 63 samples.

Results

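Newborn neurons and neural stem cells were compared in the dorsal cerebral cortex of mouse embryos at E15.5, with 3 RNA-seq libraries of each cell type, 6 of the 63 libraries of the series. All libraries labelled with this day and one of these cell types were taken, and 15231 of the 23078 genes in the deposited table reached 1 TPM in 3 or more libraries and were tested. TPM is transcript abundance corrected for transcript length and scaled to the same total in each library. All embryos were Ski knock-out on a C57Bl/6 background and were labelled female. The stem cells were GFP-positive cells of Hes5::GFP embryos, and the newborn neurons, like the basal progenitors (3 further libraries of E15.5), were GFP-positive cells of Tbr2::GFP embryos. The reporter line and the cell type therefore cannot be told apart. Hes5 and Eomes (the gene of Tbr2) are genes of the sort reporters, and their levels are no finding. No source used here gives the gate that divided basal progenitors from newborn neurons. The comparison holds no wild type embryo, so it shows how the cell types of knock-out cortex differ and not what the loss of Ski does. The labels do not say whether the 3 libraries of a group came from separate embryos, so p-values measure spread between libraries. That spread is 1 estimate per gene shared by all 63 libraries in 19 groups, and not that of these 6 alone.

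Stem cells of the embryonic dorsal cortex, the radial glia, divide at the ventricle under Notch signalling and give rise to neurons either directly or through basal progenitors, which carry the transcription factor Tbr2 and divide away from the ventricle. A newborn neuron leaves the cell cycle, migrates along radial glia and builds an axon, dendrites and receptors. Ski is a co-repressor that acts with SMAD proteins, transducers of TGF-beta and BMP signals, and with chromatin-modifying complexes.

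Markers of the labelled cell types were checked first. Each of 8 stem cell markers was called lower in the newborn neurons, with mean levels in the stem cells at 393% to 2340% of those in the newborn neurons. Among 5 basal progenitor markers other than Eomes, 4 were called lower in the newborn neurons and the stem cells held 184% to 315% of the newborn neuron level. The 8 neuron markers stood at 41.2% to 76.4% of the newborn neuron level in the libraries labelled stem cell, and 2 of them, Tbr1 and Stmn2, were called higher in the newborn neurons. Tubb3, a neuronal tubulin, was at 1973, 2379.9 and 2036 TPM in the stem cells and 2749, 3406 and 2881 TPM in the newborn neurons. Neurod6, a transcription factor of postmitotic cortical neurons, was at 981, 1042 and 1099.9 TPM in the stem cells and 1413, 1814 and 1538 TPM in the newborn neurons. The newborn neuron libraries were higher in each case without overlap, but the differences were 0.50 ± 0.26 (adjusted p = 0.139) and 0.60 ± 0.56 (adjusted p = 0.445) on the log2(TPM + 1) scale and were not called. Basal progenitor markers were also abundant in the stem cell libraries. Mean levels in stem cells and basal progenitors were 253 and 230 TPM for Neurog2, and 226 and 258 TPM for Insm1. They were 53.2 and 55.9 TPM for Btg2, and 126 and 121 TPM for Gadd45g. Neurod1 was lower in the stem cells, at 82.4 against 209.85 TPM. Neuron and basal progenitor markers were thus abundant in the libraries labelled stem cell. Neuron markers were abundant in the basal progenitor libraries too, with means of 2205 TPM for Tubb3 and 1375 TPM for Neurod6. Of the 8 neuron markers only Stmn2 was called between newborn neurons and basal progenitors. Every difference below is between libraries as sorted. In such bulk samples, fewer cells of a type and less RNA per cell cannot be told apart.

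**Figure D1:**
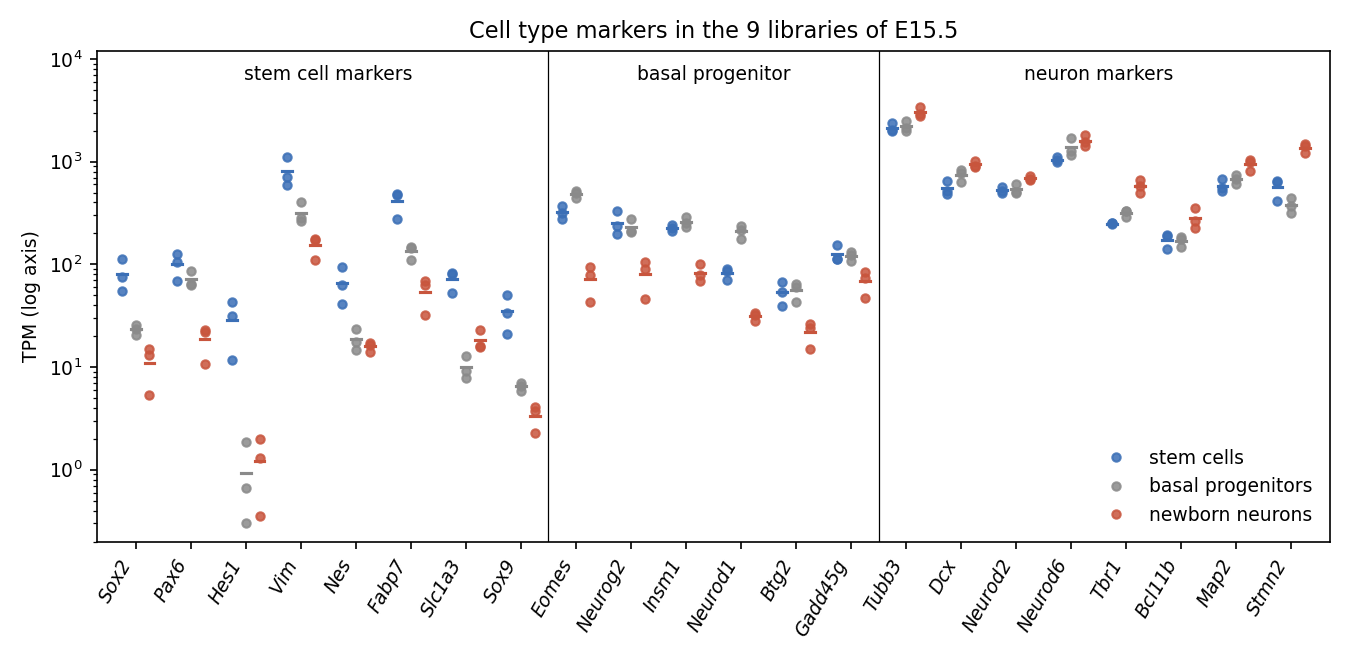
TPM on a log axis of 8 stem cell, 6 basal progenitor and 8 neuron markers in each of the 9 libraries of E15.5 (points) with the mean of each group (short lines). Stem cell markers separate the stem cell libraries from the newborn neuron libraries, while neuron markers such as Tubb3 and Neurod6 are high in all 3 groups.

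Stem cell replicate 1 stood apart from the other libraries of its group. Over the tested genes its correlation with the newborn neuron libraries was 0.927 to 0.941, against 0.960 to 0.968 for stem cell replicates 2 and 3. Replicate 1 of each of the 3 cell types carried Xist, the transcript of the inactive X chromosome, at 90.8 to 246 TPM, and replicates 2 and 3 carried the Y-linked Ddx3y at 11.1 to 21.4 TPM, against the female label of those libraries. The share of TPM in mitochondrially encoded genes was 9.22% to 10.9% in the newborn neurons and 5.04% to 7.46% in the stem cells, and the share in ribosomal protein genes was 6.11% to 6.29% and 7.80% to 9.55%. The part of these differences in the results was not tested. Ski itself was at 40.1, 39.5 and 47.1 TPM in the stem cells and 47.6, 45.05 and 38.3 TPM in the newborn neurons. The difference was 0.04 ± 0.16 (adjusted p = 0.873). The deleted part of Ski is not stated, so its TPM does not check the knock-out.

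Between the cell types, 563 genes (3.70% of those tested) were called higher and 945 (6.20%) lower in the newborn neurons, where a call is an adjusted p under 0.05 in limma's moderated test with Benjamini-Hochberg adjustment and a log2 difference of at least 1 in size. Differences are newborn neurons minus stem cells in log2(TPM + 1) with their standard error, and the pseudocount of 1 understates the change of low genes. The falls were the larger ones, with 226 genes lower by at least 2 and 21 by at least 3 on the log2 scale, against 42 and 0 higher genes. The TPM values of the 6 libraries did not overlap between the groups for 558 of the 563 higher and 944 of the 945 lower genes, where 19.8% and 29.2% of all tested genes were separated in these directions. By adjusted p alone, 4694 genes (30.8%) passed. The median difference over all tested genes was -0.04. Without stem cell replicate 1 the count of higher genes fell to 335, of which 334 were shared with the full set, and 765 were lower. With replicates 2 and 3 of each group only, the libraries with Ddx3y, 300 genes were called higher and 862 lower. For every called gene named below, all 3 libraries of the higher group were above all 3 of the other.

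Genes of the stem cell state were among the largest falls. In the counts that follow, higher and lower mean in the newborn neurons against the stem cells. Of 24 radial glia genes tested, Hes5 among them, 22 were called lower and 0 higher, with a median log2 difference of -2.65. Hes5, a Notch target and the reporter gene of the stem cell sort, was at 116, 34.2 and 171 TPM in the stem cells and 3.58, 1.02 and 2.63 TPM in the newborn neurons. Its relative Hes1, a repressor that keeps radial glia undifferentiated, was at 42.9, 11.7 and 31.3 TPM in the stem cells and 2.01, 0.354 and 1.31 TPM in the newborn neurons. The difference was -3.63 ± 0.53 (adjusted p = 5.61e-07). Stem cell replicate 2 was the lowest of its group for both. Sox2, a transcription factor of neural stem cells, was at 112, 55.3 and 75.8 TPM in the stem cells and 12.97, 5.28 and 14.9 TPM in the newborn neurons. The difference was -2.82 ± 0.28 (adjusted p = 7.74e-11). Pax6, which sets cortical progenitor identity, was at 127, 68.3 and 104 TPM in the stem cells and 22.8, 10.8 and 22.1 TPM in the newborn neurons. The difference was -2.39 ± 0.31 (adjusted p = 3.41e-08). Both were higher in each stem cell library than in any newborn neuron library. The glial-lineage factor Sox9 differed by -2.98 ± 0.28 (adjusted p = 3.11e-11), the intermediate filament Vim by -2.37 ± 0.24 (adjusted p = 1.02e-10), the lipid carrier Fabp7 by -2.93 ± 0.32 (adjusted p = 9.07e-10), and the acyl-CoA binding protein Dbi by -2.41 ± 0.24 (adjusted p = 7.9e-11). Other genes among the 10 largest falls were the glycolytic Aldoc at -3.87, the cell cycle regulator Rgcc at -3.63, the metallothionein Mt2 at -3.49, the SoxB1 factor Sox3 at -3.34 and the membrane glycoprotein Pdpn at -3.27. Their adjusted p-values (limma) ran from 1.11e-10 for Pdpn to 6.87e-06 for Aldoc.

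Part of the Notch pathway was lower. Of 22 genes tested, Hes5 among them, 9 were called lower and 1 higher, with a median log2 difference of -0.90. The receptor Notch1 was at 81.4, 41.8 and 60.2 TPM in the stem cells and 9.60, 4.29 and 9.23 TPM in the newborn neurons. The difference was -2.85 ± 0.25 (adjusted p = 6.08e-12). Nrarp, a target and feedback inhibitor, was at 73.8, 38.4 and 48.7 TPM in the stem cells and 6.25, 4.14 and 5.17 TPM in the newborn neurons. The difference was -3.11 ± 0.27 (adjusted p = 6.6e-12). Lfng, a glycosyltransferase that modifies Notch receptors, was at 30.5, 11.9 and 18.48 TPM in the stem cells and 1.64, 0.341 and 0.623 TPM in the newborn neurons. The difference was -3.48 ± 0.33 (adjusted p = 3.11e-11). For all 3 the lowest stem cell library was several times above the highest newborn neuron library. The ligands Dll1, Dll3, Jag1 and Jag2 and the effector Rbpj were not called. Dner, a neuronal transmembrane protein with EGF repeats, was the only member called higher, at 36.4, 61.7 and 34.2 TPM in the stem cells and 102, 116 and 143 TPM in the newborn neurons. The difference was 1.46 ± 0.39 (adjusted p = 0.00293).

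To show what stands next to 2 of these start sites, the 120 bases that end 1 base before the annotated start are printed 5′ to 3′ on the gene's strand (RefSeq, build GRCm38.p6), for Hes5 at chr4:154960803-154960922 (plus strand) and Lfng at chr5:140607221-140607340 (plus strand), with GTGGGAA, a string that Notch's partner Rbpj binds, in capitals.
Hes5: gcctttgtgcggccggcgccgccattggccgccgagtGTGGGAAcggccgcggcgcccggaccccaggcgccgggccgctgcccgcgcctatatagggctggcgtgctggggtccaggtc
Lfng: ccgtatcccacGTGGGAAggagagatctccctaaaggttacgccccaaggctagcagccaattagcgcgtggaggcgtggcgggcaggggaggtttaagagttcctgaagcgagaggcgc
Searched on both strands of the 250 bases before the start, GTGGGAA was present in 711 of 10850 tested genes with a promoter in the RefSeq table (6.55%), in 2 of 17 Notch pathway genes (11.8%) and in 4 of 22 radial glia genes (18.2%). It was also present in 10.7% of the genes called higher and 7.63% of those called lower. A match is a description of the letters and not a binding site. This string was among 13 counted, all chosen after the expression values had been seen.

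Other signalling systems of progenitors were lower in part. Of 10 tested genes of the YAP and TEAD axis, which links tissue mechanics to growth, 8 were called lower and 0 higher, with a median log2 difference of -1.92. The co-activator Yap1 was at 33.3, 13.9 and 20.02 TPM in the stem cells and 3.98, 1.32 and 3.50 TPM in the newborn neurons. The difference was -2.56 ± 0.30 (adjusted p = 2.99e-09). Its paralogue Wwtr1 differed by -2.49 ± 0.33 (adjusted p = 8.02e-08), the DNA-binding partner Tead2 by -2.25 ± 0.20 (adjusted p = 8.47e-12) and the LIM protein Ajuba by -2.48 ± 0.26 (adjusted p = 2.33e-10). Cyr61, a matricellular target of the axis, was at 44.6, 16.97 and 40.8 TPM in the stem cells and 2.64, 0.832 and 1.85 TPM in the newborn neurons. The difference was -3.61 ± 0.54 (adjusted p = 8.77e-07). In the Hedgehog list of 15 genes, 5 were called lower and 0 higher, with a median log2 difference of -0.35. The signal transducer Smo was at 62.9, 44.9 and 47.1 TPM in the stem cells and 11.52, 6.97 and 9.97 TPM in the newborn neurons. Its difference of -2.34 ± 0.18 (adjusted p = 1.46e-13) had the smallest adjusted p of the genes named for this comparison. Gli2, an activating effector, differed by -2.48 ± 0.26 (adjusted p = 3.16e-10), Gli3, mainly a repressor, by -2.87 ± 0.35 (adjusted p = 1.25e-08), and the co-receptor Gas1 by -3.09 ± 0.41 (adjusted p = 7.18e-08). The target genes Gli1 and Ptch1 were not called.

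Wnt receptors and nuclear effectors were among the genes that fell. Of 25 tested, 10 were called lower and 0 higher, with a median log2 difference of -0.59. The receptor Fzd2 was at 92.3, 62.4 and 67.7 TPM in the stem cells and 21.2, 15.1 and 15.1 TPM in the newborn neurons. The difference was -2.05 ± 0.20 (adjusted p = 8.53e-11). Its relative Fzd1 was at 81.9, 77.2 and 54.6 TPM in the stem cells and 26.5, 19.3 and 15.8 TPM in the newborn neurons. The difference was -1.75 ± 0.19 (adjusted p = 5.65e-10). Every stem cell library was above every newborn neuron library for both. The nuclear effectors Lef1 and Tcf7l1 differed by -1.63 ± 0.22 (adjusted p = 8.26e-08) and -2.21 ± 0.30 (adjusted p = 1.14e-07). Axin2, a common readout of Wnt activity, was not called.

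Some genes linked to Ski and its pathway were lower, where 6.20% of all tested genes were called lower and 3.70% higher. Of 19 tested SKI and SMAD partners, 4 were called lower and 0 higher, with a median log2 difference of -0.21. The deacetylase Hdac1 was at 82.1, 56.8 and 60.3 TPM in the stem cells and 30.6, 27.00 and 26.7 TPM in the newborn neurons. The difference was -1.20 ± 0.14 (adjusted p = 1.55e-09). The inhibitory SMAD gene Smad6 was at 6.85, 6.54 and 4.95 TPM in the stem cells and 1.71, 2.35 and 0.615 TPM in the newborn neurons. The difference was -1.53 ± 0.23 (adjusted p = 9.77e-07). The zinc finger regulator Prdm16 was at 23.3, 13.4 and 16.6 TPM in the stem cells and 3.86, 2.57 and 3.09 TPM in the newborn neurons. The difference was -2.15 ± 0.39 (adjusted p = 2.59e-05). The fourth was Gli3, given above. In the TGF-beta and BMP list of 25 genes, 5 were called lower and 1 higher, with a median log2 difference of -0.07. Id1, Id3 and Id4, BMP-responsive inhibitors of bHLH factors, differed by -2.23 ± 0.31 (adjusted p = 1.65e-07), -2.70 ± 0.48 (adjusted p = 1.74e-05) and -2.17 ± 0.32 (adjusted p = 6.95e-07), and for Id1 the levels were 11.1, 7.40 and 15.9 TPM in the stem cells and 2.60, 0.878 and 1.47 TPM in the newborn neurons. The ligand gene Tgfb2 differed by -1.84 ± 0.32 (adjusted p = 9.99e-06). The activin subunit Inhba was the 1 higher gene (1.10 ± 0.42, adjusted p = 0.041) and lost that call without stem cell replicate 1, at 0.97 (adjusted p = 0.161), and without any one of 4 other libraries.

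In the FGF and EGF list of 19 genes, 4 were called lower and 2 higher, with a median log2 difference of -0.34. Among all tested genes 6.20% were called lower and 3.70% higher. The receptor Fgfr3 and the FGF carrier Fgfbp3 differed by -1.94 ± 0.24 (adjusted p = 1.25e-08) and -1.86 ± 0.38 (adjusted p = 0.000155), and the phosphatase Dusp4 by -1.23 ± 0.29 (adjusted p = 0.000782). The opposite direction was seen for the neuregulin Nrg3, which was at 8.26, 12.3 and 19.8 TPM in the stem cells and 43.6, 50.2 and 60.2 TPM in the newborn neurons. The difference was 1.92 ± 0.33 (adjusted p = 7.87e-06). The ERK phosphatase Dusp6 was also higher, at 13.4, 20.96 and 21.5 TPM in the stem cells and 50.4, 61.1 and 45.1 TPM in the newborn neurons. The difference was 1.46 ± 0.31 (adjusted p = 0.000247). The neuregulin receptor Erbb4 was lower, at 4.32, 5.85 and 5.40 TPM in the stem cells and 0.901, 0.162 and 0.598 TPM in the newborn neurons. The difference was -2.02 ± 0.46 (adjusted p = 0.000575). So the ligand Nrg3 and the receptor Erbb4 differed in opposite directions between the same libraries. Which cells of the sorted libraries carried either transcript was not tested. Erbb4 was at 0.555, 0.138 and 0.911 TPM in the basal progenitors, called lower than in the stem cells (-2.04 ± 0.46, adjusted p = 0.00194). Nrg3 was called lower in the basal progenitors too (-1.80 ± 0.33, adjusted p = 9.16e-05).

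Genes of DNA replication and mitosis were lower in the newborn neurons. Of 26 G2 and M phase genes tested, 22 were called lower and 0 higher, with a median log2 difference of -2.29. Cdc20, an activator of the anaphase-promoting complex, was at 94.7, 43.8 and 49.5 TPM in the stem cells and 6.80, 5.50 and 9.08 TPM in the newborn neurons. The difference was -2.91 ± 0.27 (adjusted p = 1.97e-11). Ccnb2, a mitotic cyclin, was at 55.5, 29.2 and 33.1 TPM in the stem cells and 6.87, 3.96 and 6.19 TPM in the newborn neurons. The difference was -2.56 ± 0.24 (adjusted p = 1.97e-11). The spindle kinase Aurka was at 46.03, 21.3 and 25.8 TPM in the stem cells and 5.46, 3.85 and 4.56 TPM in the newborn neurons. The difference was -2.45 ± 0.23 (adjusted p = 3.03e-11). No library of the stem cells came near the newborn neuron values for these genes, and stem cell replicate 1 was the highest. Cdca8, of the chromosomal passenger complex, differed by -2.31 ± 0.23 (adjusted p = 4.7e-11). Mki67, the proliferation marker, was at 32.4, 11.3 and 26.99 TPM in the stem cells and 6.65, 3.94 and 6.24 TPM in the newborn neurons. The difference was -1.80 ± 0.58 (adjusted p = 0.0146). It was not called without stem cell replicate 1, at -1.52 (adjusted p = 0.0987), without stem cell replicate 3, at -1.64 (adjusted p = 0.0522), or without newborn neuron replicate 2, at -1.60 (adjusted p = 0.0656).

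S phase genes were lower to a smaller degree. Of 26 tested, 17 were called lower and 0 higher, with a median log2 difference of -1.25, and 13 were lower without stem cell replicate 1. The helicase subunit Mcm2 was at 111, 49.6 and 59.2 TPM in the stem cells and 17.2, 13.9 and 14.6 TPM in the newborn neurons. Its partner Mcm3 was at 87.1, 30.2 and 52.6 TPM in the stem cells and 9.90, 4.82 and 8.35 TPM in the newborn neurons. The differences were -2.11 ± 0.22 (adjusted p = 2.03e-10) and -2.65 ± 0.29 (adjusted p = 6.94e-10). Uhrf1, which guides maintenance methylation to new DNA, and the licensing factor Cdt1 differed by -2.39 ± 0.27 (adjusted p = 1.88e-09) and -2.25 ± 0.27 (adjusted p = 7.3e-09). Of 22 cycle regulators, 9 were called lower and 0 higher, with a median log2 difference of -0.89. The kinase Cdk2 (-2.25), the cyclin Ccnd2 (-1.85) and the CDK inhibitor Cdkn2c (-2.35) were all lower, so both a driver and a brake of the cycle were in the called set.

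Mitotic genes share CCAAT boxes near their starts, which NF-Y binds, and CHR elements (TTTGAA), which the DREAM complex binds. The 120 bases before the start of 4 mitotic genes are printed 5′ to 3′ on the gene's strand, with CCAAT and TTTGAA on either strand in capitals, from Cdk1 at chr10:69352913-69353032 (minus strand), Cdc20 at chr4:118437344-118437463 (minus strand), Ube2c at chr2:164769809-164769928 (plus strand) and Ccnb2 at chr9:70421555-70421674 (minus strand) (RefSeq, GRCm38.p6). The 4 were chosen after their values had been seen, and Cdk1 and Ube2c differed by -2.93 ± 0.31 (adjusted p = 2.42e-10) and -2.49 ± 0.25 (adjusted p = 9.23e-11).
Cdk1: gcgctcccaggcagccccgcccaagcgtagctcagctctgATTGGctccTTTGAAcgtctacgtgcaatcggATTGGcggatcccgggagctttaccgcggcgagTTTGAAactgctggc
Cdc20: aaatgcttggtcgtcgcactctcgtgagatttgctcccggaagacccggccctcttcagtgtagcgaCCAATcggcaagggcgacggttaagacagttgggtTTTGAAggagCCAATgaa
Ube2c: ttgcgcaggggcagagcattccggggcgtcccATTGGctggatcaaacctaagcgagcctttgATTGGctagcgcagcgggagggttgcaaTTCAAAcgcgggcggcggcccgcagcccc
Ccnb2: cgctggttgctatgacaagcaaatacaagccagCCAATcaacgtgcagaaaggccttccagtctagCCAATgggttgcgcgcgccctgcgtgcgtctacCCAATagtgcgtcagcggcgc
In the 250 bases before the start, CCAAT was present in 20 of 23 G2 and M phase genes with a promoter in the table (87.0%) and 17 of 21 S phase genes (81.0%), against 4388 of 10850 tested genes (40.4%). TTTGAA was present in 9 of 23 G2 and M phase genes (39.1%) and 3 of 21 S phase genes (14.3%), against 12.7% of all. Across all genes called lower the shares were 45.5% for CCAAT and 15.8% for TTTGAA. The 2 strings do not overlap each other. The Ccnb2 stretch holds 3 CCAAT strings and no TTTGAA, which says only that these letters are not in that window.

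Basal progenitor genes were lower in part as well. Of 22 tested genes, Eomes among them, 14 were called lower and 1 higher, with a median log2 difference of -1.41. Basal progenitors minus stem cells gave a median of 0.15 for this list, with 5 genes called higher and 0 lower in the basal progenitors. Neurog2, a proneural factor that drives neurogenesis, was at 329, 235 and 196 TPM in the stem cells and 90.5, 45.5 and 105.03 TPM in the newborn neurons. The difference was -1.70 ± 0.30 (adjusted p = 1.83e-05). Insm1, a zinc finger factor of delaminating progenitors, was at 240.2, 225 and 212 TPM in the stem cells and 101, 68.6 and 78.04 TPM in the newborn neurons. The difference was -1.46 ± 0.20 (adjusted p = 1.85e-07). Mfap4, an extracellular matrix protein, was at 179, 162 and 146 TPM in the stem cells and 22.3, 15.8 and 23.5 TPM in the newborn neurons. The difference was -2.94 ± 0.26 (adjusted p = 7.11e-12). Tac2, a tachykinin precursor, was listed at 0 in each newborn neuron library and at 6.77, 12.9 and 4.67 TPM in the stem cells. Mfng, a fringe glycosyltransferase, differed by -2.33 ± 0.24 (adjusted p = 1.11e-10) and the kinesin Kif26b by -2.37 ± 0.29 (adjusted p = 1.37e-08). Gpr85, an orphan receptor, was the 1 higher member, at 60.7, 94.3 and 107 TPM in the stem cells and 199, 221 and 192 TPM in the newborn neurons. The difference was 1.25 ± 0.33 (adjusted p = 0.00266). Eomes, the reporter gene of the sort that gave the newborn neurons, was itself lower in them, at 371, 314 and 274 TPM in the stem cells and 77.8, 43.1 and 93.5 TPM in the newborn neurons.

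Interneuron genes were mostly higher in the stem cell libraries. Of 19 interneuron genes tested, which mark cells born in the ventral forebrain, 16 were called lower and 1 higher, with a median log2 difference of -2.02. Their summed level was 278 to 327 TPM in the stem cells and 97.1 to 124 TPM in the newborn neurons. Lhx6, a factor of interneurons from the medial ganglionic eminence, was at 25.8, 33.3 and 27.4 TPM in the stem cells and 2.21, 0.982 and 2.39 TPM in the newborn neurons. The difference was -3.41 ± 0.50 (adjusted p = 4.74e-07). The factor Npas1 differed by -1.81 ± 0.23 (adjusted p = 2.02e-08). The separation between groups was complete for both genes, as it was in the basal progenitors for Lhx6 (0.710, 0.655 and 2.34 TPM) against the stem cells. Npy, a neuropeptide, was the 1 higher member (1.44 ± 0.56, adjusted p = 0.0442) and was not called without stem cell replicate 1 (1.11, adjusted p = 0.232), nor without any one of 4 other libraries. Of the list, 13 were also called lower in the basal progenitors than in the stem cells, so these transcripts set the stem cell libraries apart from both Tbr2::GFP groups, and their part in the other results was not tested.

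Some glial genes were lower too. Of 20 astrocyte genes, 9 were called lower and 1 higher, with a median log2 difference of -0.60, and of 15 oligodendrocyte lineage genes, 5 were called lower and 0 higher, with a median log2 difference of -0.34. The astrocyte membrane protein Mlc1 was at 16.9, 9.03 and 13.47 TPM in the stem cells and 1.34, 0.232 and 0.691 TPM in the newborn neurons. The difference was -3.02 ± 0.30 (adjusted p = 6.5e-11). Bcan, a brain proteoglycan, was at 31.5, 16.4 and 26.8 TPM in the stem cells and 2.79, 0.675 and 2.39 TPM in the newborn neurons. The difference was -3.17 ± 0.38 (adjusted p = 6.76e-09). Sox8, a SoxE factor, differed by -2.75 ± 0.30 (adjusted p = 5.51e-10), and the glial potassium channel Kcnj10 by -2.26 ± 0.28 (adjusted p = 1.4e-08). Gfap, the astrocyte filament, stayed under 1 TPM in all 6 libraries. Olig2, a factor of the oligodendrocyte lineage, differed by -1.03 ± 0.45 (adjusted p = 0.0791) and was not called. It was called with a replicate block, at -1.03 (adjusted p = 0.0458), in a fit of the 6 libraries alone, at -1.03 (adjusted p = 0.00781), and with a pseudocount of 0.1, at -1.73 (adjusted p = 0.011). Sparcl1, which the list takes as an astrocyte gene, was higher in the newborn neurons, at 10.7, 22.5 and 30.1 TPM in the stem cells and 71.2, 70.99 and 81.9 TPM in the newborn neurons. The difference was 1.88 ± 0.33 (adjusted p = 1.5e-05). Of 22 matrix and adhesion genes, 9 were called lower and 1 higher, with a median log2 difference of -0.39. The matrix glycoprotein Tnc and the collagen Col2a1 differed by -3.07 ± 0.39 (adjusted p = 1.96e-08) and -2.84 ± 0.34 (adjusted p = 6.55e-09), and the proteoglycan Vcan, the higher member, by 1.91 ± 0.48 (adjusted p = 0.00173). Of 19 apical junction genes, 4 were called lower and 1 higher, with a median log2 difference of -0.55, led by the polarity genes Pard3 (-1.76 ± 0.17, adjusted p = 4.7e-11) and Crb2 (-2.34 ± 0.24, adjusted p = 1.68e-10) and the catenin Ctnna1 (-1.56 ± 0.18, adjusted p = 2.03e-09). Llgl1, a further polarity gene, differed by -1.01 ± 0.10 (adjusted p = 1.28e-10) and came out under the size limit without stem cell replicate 1, at -0.90 (adjusted p = 4.03e-08), or newborn neuron replicate 3, at -0.94 (adjusted p = 1.94e-08).

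**Figure D2:**
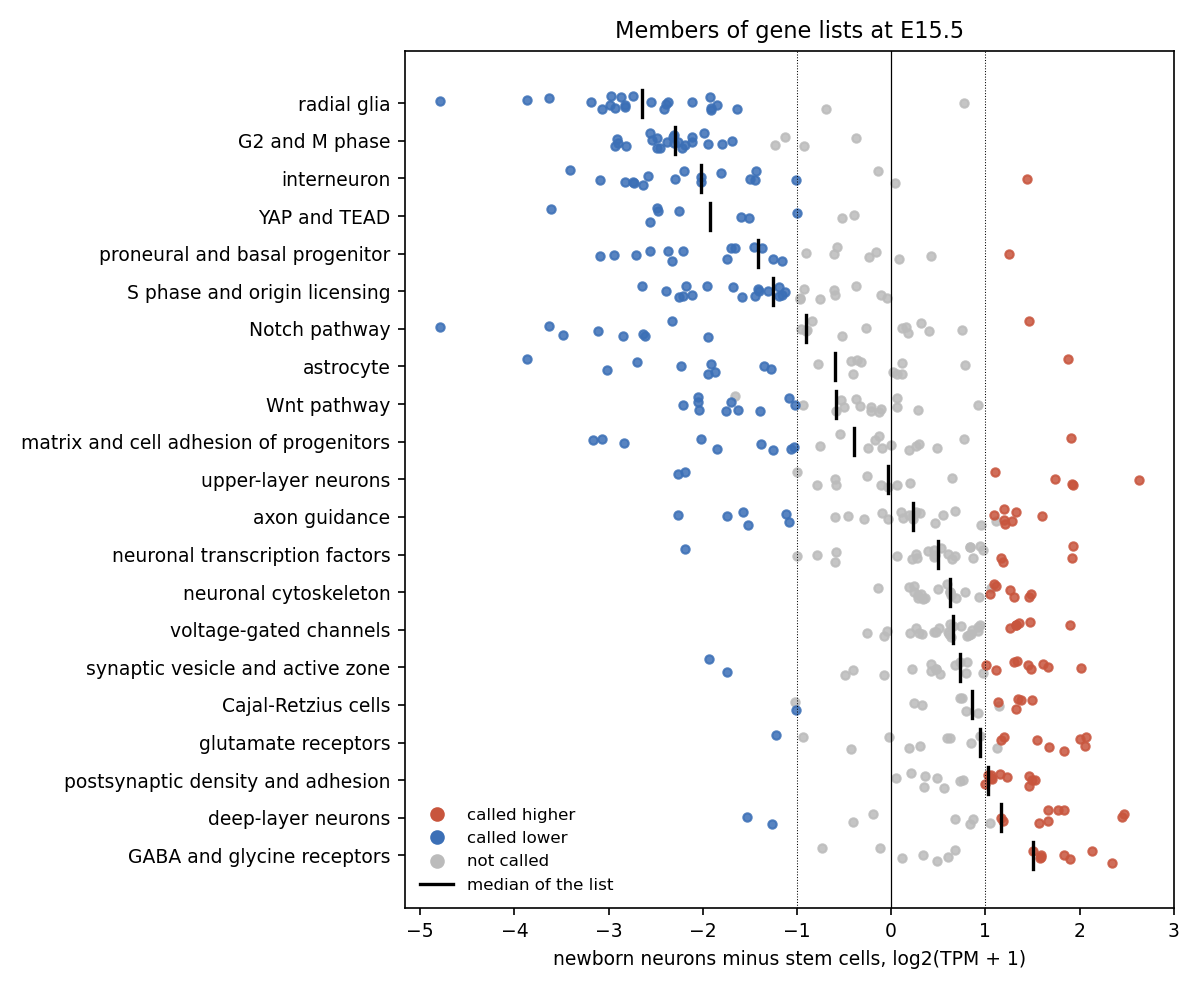
Differences in log2(TPM + 1), newborn neurons minus stem cells, for the tested members of 21 gene lists (points, coloured by call) with the list median (black bar); dotted lines mark a difference of 1. Radial glia, mitotic and interneuron genes lie mostly below -1, while receptor, postsynaptic and deep-layer genes have medians near or above 1.

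The genes that rose most in the newborn neurons included receptors, ligands and enzymes. Necab1, a neuronal calcium-binding protein, was at 1.39, 3.89 and 4.79 TPM in the stem cells and 21.2, 18.00 and 40.4 TPM in the newborn neurons. The difference was 2.67 ± 0.44 (adjusted p = 4.95e-06). Mc4r, a melanocortin receptor, was at 14.8, 10.9 and 12.8 TPM in the stem cells and 65.9, 96.1 and 92.6 TPM in the newborn neurons. The difference was 2.62 ± 0.36 (adjusted p = 1.3e-07). For both genes the lowest newborn neuron library was several times above the highest stem cell library. The heparan sulfate sulfotransferases Hs3st3b1 and Hs3st4 differed by 2.58 ± 0.29 (adjusted p = 1.24e-09) and 2.47 ± 0.40 (adjusted p = 3.08e-06), the KIT ligand Kitl by 2.63 ± 0.58 (adjusted p = 0.000444) and the D1 dopamine receptor gene Drd1a by 2.42 ± 0.26 (adjusted p = 3.73e-10). The transcription factor Nfe2l3, the GABA-A subunit Gabra5 and the neurexophilin Nxph3 rose by 2.45, 2.34 and 2.33.

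Among the lists of cortical layers, the deep-layer list had the highest median. Of 17 deep-layer genes tested, 9 were called higher and 2 lower, with a median log2 difference of 1.17. Nfe2l3 was at 8.92, 16.4 and 17.1 TPM in the stem cells and 73.9, 75.4 and 88.6 TPM in the newborn neurons. The difference was 2.45 ± 0.34 (adjusted p = 1.3e-07). Tle4, a co-repressor of corticothalamic neurons, was at 28.2, 39.1 and 40.7 TPM in the stem cells and 117, 107 and 149.6 TPM in the newborn neurons. The difference was 1.77 ± 0.27 (adjusted p = 1.25e-06). Zfpm2, a GATA co-factor, was at 10.1, 10.49 and 14.8 TPM in the stem cells and 40.04, 44.2 and 48.98 TPM in the newborn neurons. The difference was 1.84 ± 0.35 (adjusted p = 4.83e-05). All 3 stem cell libraries were below all newborn neuron libraries, by more than a factor of 2. Tbr1, which specifies corticothalamic fate, was at 248, 249.8 and 250.3 TPM in the stem cells and 489, 665 and 573 TPM in the newborn neurons. The difference was 1.19 ± 0.40 (adjusted p = 0.0175). It was not called without stem cell replicate 1, at 1.19 ± 0.45 (adjusted p = 0.0541), or newborn neuron replicate 2, at 1.08 ± 0.45 (adjusted p = 0.0682). Without stem cell replicate 1 the difference of Tbr1 was unchanged and its standard error was larger. Bcl11b, of subcerebral neurons, was at 191, 142 and 188 TPM in the stem cells and 262, 352 and 227 TPM in the newborn neurons. The difference was 0.68 ± 0.43 (adjusted p = 0.248), which was not called. The 2 lower members were Etv1 (-1.53 ± 0.60, adjusted p = 0.0481), which lost the call when any one of 5 libraries was left out and stood at -1.32 (adjusted p = 0.185) without stem cell replicate 1, and Diap3 (-1.27 ± 0.37, adjusted p = 0.00621), a formin.

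Upper-layer genes did not move together. Of 17 tested, 5 were called higher and 2 lower, with a median log2 difference of -0.03. Kitl was at 7.13, 13.7 and 12.46 TPM in the stem cells and 59.1, 55.1 and 112 TPM in the newborn neurons. Rorb, of layer 4 neurons, was at 2.56, 2.99 and 5.39 TPM in the stem cells and 15.9, 12.7 and 20.5 TPM in the newborn neurons. The difference was 1.92 ± 0.34 (adjusted p = 1.96e-05). Mef2c, an activity-linked factor, was at 21.3, 47.6 and 70.1 TPM in the stem cells and 143, 148 and 198 TPM in the newborn neurons. The difference was 1.93 ± 0.52 (adjusted p = 0.00347). It was not called without stem cell replicate 1 (1.47, adjusted p = 0.0631). Lhx2, a LIM factor shared by progenitors and upper-layer cells, was at 648, 525 and 504 TPM in the stem cells and 147, 136 and 87.5 TPM in the newborn neurons. The difference was -2.19 ± 0.23 (adjusted p = 1.88e-10). Unc5d, a netrin receptor of multipolar cells, was at 38.3, 41.6 and 40.3 TPM in the stem cells and 11.49, 6.06 and 6.11 TPM in the newborn neurons. The difference was -2.26 ± 0.44 (adjusted p = 8.17e-05). Of 13 subplate genes, 6 were called higher and 3 lower, with a median log2 difference of 0.09. Nxph3 was at 15.8, 30.2 and 18.02 TPM in the stem cells and 98.2, 113 and 110.2 TPM in the newborn neurons. The potassium channel subunit Kcnab1 was at 0.401, 1.29 and 0.688 TPM in the stem cells and 7.47, 5.69 and 11.8 TPM in the newborn neurons. The difference was 2.36 ± 0.29 (adjusted p = 1.28e-08). Among the lower members of that list were the collagen receptor Ddr1 (-1.34 ± 0.18, adjusted p = 6.39e-08) and Ctgf (-1.59 ± 0.36, adjusted p = 0.00063), which is also a target of YAP.

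Cajal-Retzius genes, of the early neurons of the marginal zone, were tested in 14, of which 5 were called higher and 1 lower, with a median log2 difference of 0.86. Without stem cell replicate 1 only 2 were called higher. Reln, the extracellular guidance protein these cells secrete, was at 42.9, 81.3 and 39.3 TPM in the stem cells and 139, 117 and 153 TPM in the newborn neurons. The difference was 1.38 ± 0.42 (adjusted p = 0.00984). It was not called without stem cell replicate 1 (1.25, adjusted p = 0.0573) or 3 (1.18, adjusted p = 0.0524). Ndnf, a secreted factor, differed by 1.49 ± 0.33 (adjusted p = 0.000389) and kept the call without each library. Basal progenitors minus stem cells gave a median of 1.03 for this list, with 2 genes called higher and 0 lower. Newborn neurons minus basal progenitors gave a median of -0.29, with 3 called higher and 2 lower. The lower member was Cxcr4, a chemokine receptor that interneurons also carry, at -1.01 ± 0.22 (adjusted p = 0.000413), and at -0.85 (adjusted p = 0.00722) without stem cell replicate 2 and -0.90 (adjusted p = 0.00516) without newborn neuron replicate 1, under the size limit.

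Some receptor genes for the main transmitters were higher in the newborn neurons. Of 15 GABA and glycine receptor genes, 8 were called higher and 0 lower, with a median log2 difference of 1.51. The GABA-A subunit Gabra3 was at 4.17, 6.85 and 7.38 TPM in the stem cells and 24.1, 21.3 and 26.5 TPM in the newborn neurons. The difference was 1.83 ± 0.29 (adjusted p = 2.49e-06). Gabra5 was at 0.796, 1.41 and 2.28 TPM in the stem cells and 9.77, 9.37 and 15.6 TPM in the newborn neurons. Glra2, the fetal glycine receptor subunit, was at 9.77, 20.98 and 27.3 TPM in the stem cells and 73.7, 58.7 and 77.1 TPM in the newborn neurons. The difference was 1.90 ± 0.42 (adjusted p = 0.000378). For all 3 the groups were apart and stem cell replicate 1 was the lowest library. Of 19 glutamate receptor genes, 8 were called higher and 1 lower, with a median log2 difference of 0.94. The kainate subunit Grik3 was at 16.7, 31.8 and 26.6 TPM in the stem cells and 90.03, 113 and 110.4 TPM in the newborn neurons. The difference was 2.06 ± 0.45 (adjusted p = 0.000319). The metabotropic Grm5 was at 3.18, 5.64 and 8.90 TPM in the stem cells and 23.96, 19.48 and 39.1 TPM in the newborn neurons. The difference was 2.07 ± 0.45 (adjusted p = 0.000303). Its relative Grm3 differed by 1.55 ± 0.35 (adjusted p = 0.000535). The kainate subunit Grik1 was lower, at 2.89, 1.91 and 2.65 TPM in the stem cells and 0.346, 0.669 and 0.447 TPM in the newborn neurons. Its difference was -1.22 ± 0.28 (adjusted p = 0.000746). Without stem cell replicate 1, 7 members of each list were called higher.

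Postsynaptic and vesicle genes were called higher in counts that rest in part on stem cell replicate 1. Of 19 postsynaptic genes, 11 were called higher and 0 lower, with a median log2 difference of 1.03, but 3 without stem cell replicate 1. Nlgn1, an adhesion molecule of excitatory synapses, was at 8.73, 14.3 and 23.00 TPM in the stem cells and 42.5, 40.7 and 46.4 TPM in the newborn neurons. The difference was 1.53 ± 0.35 (adjusted p = 0.000635). Lrrc4c, a netrin-G ligand, was at 12.8, 14.7 and 21.8 TPM in the stem cells and 39.6, 45.7 and 53.6 TPM in the newborn neurons. The difference was 1.46 ± 0.31 (adjusted p = 0.000285). Baiap2, an actin scaffold, was at 22.6, 37.9 and 32.98 TPM in the stem cells and 65.7, 83.5 and 70.7 TPM in the newborn neurons. The difference was 1.23 ± 0.26 (adjusted p = 0.000223). These 3 kept the call without any one library. Homer1 differed by 1.06 ± 0.26 (adjusted p = 0.00136), and by 0.92 (adjusted p = 0.0196) without stem cell replicate 1, under the size limit. Of 25 vesicle and active zone genes, 9 were called higher and 2 lower, with a median log2 difference of 0.73, and 4 were higher without stem cell replicate 1. Sv2b, a vesicle glycoprotein, was at 2.72, 4.91 and 2.60 TPM in the stem cells and 15.6, 14.7 and 19.3 TPM in the newborn neurons. The difference was 2.02 ± 0.36 (adjusted p = 1.84e-05). The fusion regulator Cplx1 was at 50.01, 76.2 and 87.5 TPM in the stem cells and 163, 194 and 160.4 TPM in the newborn neurons. The difference was 1.30 ± 0.31 (adjusted p = 0.0012). The active zone protein Rims1 was at 7.13, 11.8 and 11.6 TPM in the stem cells and 23.1, 25.04 and 32.8 TPM in the newborn neurons. The difference was 1.34 ± 0.35 (adjusted p = 0.0023). Slc17a6, a vesicular glutamate transporter gene that the basal progenitors carried at 129, 90.3 and 115.3 TPM, was lower, at 40.7, 37.04 and 47.1 TPM in the stem cells and 13.8, 8.26 and 14.1 TPM in the newborn neurons. The difference was -1.74 ± 0.36 (adjusted p = 0.000186). Nrxn3, a presynaptic neurexin, was lower too, -1.93 ± 0.48 (adjusted p = 0.00156).

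Of 29 voltage-gated channel genes, 6 were called higher and 0 lower, with a median log2 difference of 0.66, and 4 were higher without stem cell replicate 1. The calcium channel Cacna1e was at 8.98, 15.98 and 17.7 TPM in the stem cells and 57.1, 55.8 and 49.2 TPM in the newborn neurons. The difference was 1.90 ± 0.44 (adjusted p = 0.000696). The potassium channel Kcnq5 was at 3.01, 3.84 and 6.29 TPM in the stem cells and 14.4, 9.76 and 13.52 TPM in the newborn neurons. The difference was 1.36 ± 0.29 (adjusted p = 0.000267). The sodium channel subunit Scn3b was at 28.6, 59.3 and 51.3 TPM in the stem cells and 107, 104.95 and 127 TPM in the newborn neurons. The difference was 1.32 ± 0.34 (adjusted p = 0.00202). All newborn neuron libraries were above all stem cell libraries for these channels. Of 25 cytoskeleton genes, 7 were called higher and 0 lower, with a median log2 difference of 0.62, and none was called without stem cell replicate 1. Mapt, the axonal tau, was at 291, 559 and 516 TPM in the stem cells and 1061, 1365 and 1211 TPM in the newborn neurons. The difference was 1.46 ± 0.45 (adjusted p = 0.00971), and 1.17 (adjusted p = 0.094) without that library. The microtubule regulator Stmn2 was at 413, 637 and 643 TPM in the stem cells and 1222, 1412 and 1474 TPM in the newborn neurons. The difference was 1.30 ± 0.38 (adjusted p = 0.00741), and 1.09 (adjusted p = 0.0664) without it. Dcx, which the markers include, was at 486, 518 and 648 TPM in the stem cells and 894, 905 and 1016 TPM in the newborn neurons. The difference was 0.78 ± 0.41 (adjusted p = 0.148), which was not called. Of 26 neuronal transcription factors, 4 were called higher and 1 lower, with a median log2 difference of 0.50, and without stem cell replicate 1 the counts were 2 and 2. Sox5, of deep-layer neurons, differed by 1.17 ± 0.37 (adjusted p = 0.0129), and by 1.07 (adjusted p = 0.0526) without newborn neuron replicate 2. Neurod2 was at 493, 559.9 and 523 TPM in the stem cells and 672, 728 and 664 TPM in the newborn neurons. The difference was 0.39 ± 0.45 (adjusted p = 0.559), which was not called.

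Migration and guidance genes were divided between the cell types. Of 23 migration and reelin response genes, 5 were called higher and 6 lower, with a median log2 difference of 0.02, and 3 were higher without stem cell replicate 1. On the higher side, the reelin adaptor Dab1 was at 103, 124 and 184.6 TPM in the stem cells and 309, 339.9 and 298 TPM in the newborn neurons. The difference was 1.24 ± 0.28 (adjusted p = 0.000464). The reelin receptor Vldlr was at 16.7, 24.02 and 27.6 TPM in the stem cells and 63.1, 49.1 and 56.8 TPM in the newborn neurons. The difference was 1.29 ± 0.31 (adjusted p = 0.00109). On the lower side, the GTPase Rnd2, a Neurog2 target that drives migration, was at 568, 401 and 386 TPM in the stem cells and 114.7, 92.8 and 72.1 TPM in the newborn neurons. The difference was -2.27 ± 0.30 (adjusted p = 8.22e-08). The semaphorin co-receptor Nrp1 was at 92.01, 112 and 109.8 TPM in the stem cells and 60.6, 30.5 and 21.8 TPM in the newborn neurons. The difference was -1.57 ± 0.35 (adjusted p = 0.000464). Dab1 and Vldlr, which act together in reelin reception, were in the higher set, and Rnd2, Nrp1 and Unc5d in the lower. Of 30 axon guidance genes, 7 were called higher and 6 lower, with a median log2 difference of 0.23, and 4 were higher without stem cell replicate 1. Slit1 was at 29.96, 37.3 and 35.1 TPM in the stem cells and 81.1, 96.5 and 81.6 TPM in the newborn neurons. The difference was 1.32 ± 0.25 (adjusted p = 6.27e-05). Its paralogue Slit2, a repellent of the same family, was at 15.9, 11.3 and 10.4 TPM in the stem cells and 5.51, 3.50 and 2.44 TPM in the newborn neurons. The difference was -1.52 ± 0.29 (adjusted p = 5.01e-05). The receptor Ephb1 differed by 1.28 ± 0.28 (adjusted p = 0.000432) and the adhesion molecule Nrcam by 1.20 ± 0.31 (adjusted p = 0.00247).

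Regulators of chromatin and RNA changed in single members, where 6.20% of all tested genes were called lower and 3.70% higher. Of 26 chromatin genes, 5 were called lower and 0 higher, with a median log2 difference of -0.18. Hmgb2, a chromatin protein of cycling cells, was at 265, 123 and 173 TPM in the stem cells and 32.5, 19.8 and 34.5 TPM in the newborn neurons. The difference was -2.62 ± 0.27 (adjusted p = 1.08e-10). Rcor2, a subunit of the CoREST complex of LSD1, was at 444, 399 and 386 TPM in the stem cells and 178, 186 and 146 TPM in the newborn neurons. The difference was -1.27 ± 0.14 (adjusted p = 1.55e-09). The deacetylase Hdac9 and the nucleosome binder Hmgn2 differed by -2.52 ± 0.27 (adjusted p = 4.71e-10) and -1.41 ± 0.17 (adjusted p = 9.49e-09). Of 20 BAF remodeller subunits, 2 were called higher and 1 lower, with a median log2 difference of -0.11. The ATPase Smarca2 was at 127, 171 and 225 TPM in the stem cells and 419, 415 and 409 TPM in the newborn neurons. The difference was 1.28 ± 0.24 (adjusted p = 5.06e-05). The neuronal-stage Dpf3 was higher, 1.30 ± 0.40 (adjusted p = 0.0106), and the progenitor-stage Actl6a lower, -1.01 ± 0.14 (adjusted p = 1.54e-07). Neither was called without stem cell replicate 1, at 1.19 (adjusted p = 0.0574) and -0.87 (adjusted p = 2.61e-05), or without newborn neuron replicate 2, at 1.12 (adjusted p = 0.0606) and -0.94 (adjusted p = 1.07e-05). Of 26 RNA-binding genes, 2 were called higher and 2 lower, with a median log2 difference of 0.04. Ptbp1, which represses neuronal exons, was at 266, 174 and 194 TPM in the stem cells and 68.7, 55.4 and 54.98 TPM in the newborn neurons. The difference was -1.79 ± 0.17 (adjusted p = 3.59e-11). The neuronal splicing factor Rbfox1 was at 39.4, 50.6 and 62.1 TPM in the stem cells and 121, 144.96 and 136 TPM in the newborn neurons. The difference was 1.41 ± 0.41 (adjusted p = 0.00666).

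Temporal genes of progenitors were mostly not called, where 6.20% of all tested genes were called lower and 3.70% higher. Of 18, 3 were called lower and 1 higher, with a median log2 difference of -0.23, and 1 was lower without stem cell replicate 1. Hmga2, of young progenitors, was at 7.68, 1.98 and 3.01 TPM in the stem cells and 0.850, 0.660 and 1.03 TPM in the newborn neurons. The difference was -1.35 ± 0.37 (adjusted p = 0.00382), and -0.91 (adjusted p = 0.0994) without that library. Zbtb20, a factor of later-born fates, differed by -1.31 ± 0.52 (adjusted p = 0.0495) and lost the call without any one of the 6 libraries, at -1.30 (adjusted p = 0.123) without stem cell replicate 1. Lin28b, an RNA-binding protein of early development, was higher in the newborn neurons, at 0.399, 0.574 and 0.465 TPM in the stem cells and 2.35, 1.79 and 2.76 TPM in the newborn neurons. The difference was 1.15 ± 0.33 (adjusted p = 0.00669).

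Lists of metabolic and stress genes held from 1 to 4 lower genes each, where 6.20% of all tested genes were called lower. Of 26 glycolysis and hypoxia genes, 3 were called lower and 1 higher, with a median log2 difference of -0.43. The platelet-type phosphofructokinase Pfkp was higher, at 4.50, 11.6 and 12.54 TPM in the stem cells and 49.3, 28.1 and 33.7 TPM in the newborn neurons. The difference was 1.92 ± 0.37 (adjusted p = 6.14e-05), opposite to that of Aldoc. Of 21 cholesterol genes, 1 was called lower and 0 higher, with a median log2 difference of -0.20. Of 16 p53 and apoptosis genes, 2 were called higher and 1 lower, with a median log2 difference of 0.01. Bcl2, which protects from apoptosis, was at 7.48, 6.07 and 6.92 TPM in the stem cells and 16.9, 18.8 and 22.7 TPM in the newborn neurons. The difference was 1.38 ± 0.33 (adjusted p = 0.000952). Pmaip1, which promotes it, was at 0.682, 1.18 and 1.10 TPM in the stem cells and 2.78, 3.63 and 3.87 TPM in the newborn neurons. The difference was 1.16 ± 0.16 (adjusted p = 3.01e-07). Of 20 immediate early and dissociation genes, 4 were called lower and 0 higher, with a median log2 difference of -0.59. Their summed level was 478 to 648 TPM in the stem cells and 274 to 312 TPM in the newborn neurons, and the part of cell handling in the comparison was not tested. Ier2, an immediate early gene, was at 52.00, 41.1 and 66.3 TPM in the stem cells and 17.8, 19.02 and 10.7 TPM in the newborn neurons. The difference was -1.70 ± 0.31 (adjusted p = 3.06e-05).

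Lists of non-neural cells held from 0 to 3 called genes each, where 6.20% of all tested genes were called lower and 3.70% higher. Of 14 microglia, 9 erythroid and 10 meningeal genes tested, none was called by limma. Of 14 endothelial and pericyte genes 1 was called in each direction, and of 10 choroid plexus genes 1 was higher. Of 10 ependymal genes 2 were higher, the cilium genes Spag6 (1.03 ± 0.21, adjusted p = 0.000194) and Ccdc39 (1.27 ± 0.42, adjusted p = 0.0186), and the ciliogenic factor Rfx2 was lower (-1.99 ± 0.19, adjusted p = 3.11e-11). Without stem cell replicate 1, neither Spag6, at 0.91 (adjusted p = 0.00473), nor Ccdc39, at 1.04 (adjusted p = 0.124), was called, nor was either without newborn neuron replicate 1. The summed erythroid level was 85.95 to 717 TPM in the newborn neurons and 34.4 to 63.8 TPM in the stem cells, and the summed choroid plexus level was 13.2 to 214 TPM and 9.70 to 17.6 TPM. In newborn neuron replicates 1, 2 and 3 the mean log2(TPM + 1) of the tested erythroid genes was 3.88, 2.02 and 2.49. That of the choroid plexus genes was 2.28, 1.53 and 0.94, so replicate 1 was the highest for both. Of 15 microglial genes listed, 7 stayed under 1 TPM in all 6 libraries, and none was at 0 throughout. The erythroid Hbb-bh1 was listed at 0 in all 6. The part of such cells in the results was not tested.

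The basal progenitor libraries of E15.5 were set beside both cell types, and an order of the 3 along a path was not tested. Against the basal progenitors, 1044 genes (6.85%) were called higher and 703 (4.62%) lower in the newborn neurons. Against the stem cells, 39 genes (0.256%) were called higher and 448 (2.94%) lower in the basal progenitors. These comparisons share libraries with each other, so their values are given side by side and no overlap between them is tested. For 459 of the 563 genes called higher in the newborn neurons, the basal progenitor mean was below that of the stem cells. It was called lower for 104 of them, where 2.94% of all tested genes were. Besides these 459, 56 genes had a mean within 0.25 of the span from the stem cells and 42 lay in between. The last 6 were within 0.25 of the newborn neurons or past them. The share of all tested genes with a basal progenitor mean below that of the stem cells is not given. For the 945 lower genes the basal progenitors were spread out, with 453 within 0.25 of the stem cells or beyond them, 281 in between and 211 near or past the newborn neurons.

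**Figure D3:**
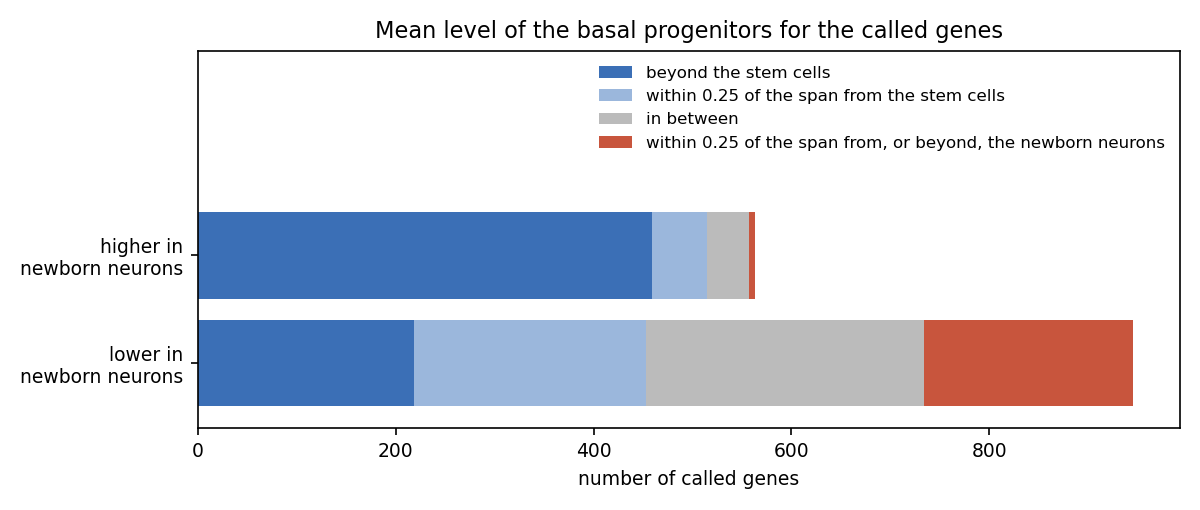
Number of genes called higher and lower in the newborn neurons, divided by where the mean log2(TPM + 1) of the basal progenitors lies on the span from the stem cells to the newborn neurons. For 459 of 563 higher genes the basal progenitor mean lies beyond that of the stem cells, a difference called for 104 genes. The 945 lower genes are spread over all 4 classes.

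The gene groups differ in where the basal progenitors stand. Mc4r was at 14.8, 10.9 and 12.8 TPM in the stem cells, 1.19, 2.60 and 1.43 TPM in the basal progenitors and 65.9, 96.1 and 92.6 TPM in the newborn neurons. Grik3 was at 16.7, 31.8 and 26.6 TPM in the stem cells, 2.04, 2.05 and 4.95 TPM in the basal progenitors and 90.03, 113 and 110.4 TPM in the newborn neurons. Dab1 was at 103, 124 and 184.6 TPM in the stem cells, 30.1, 64.4 and 41.9 TPM in the basal progenitors and 309, 339.9 and 298 TPM in the newborn neurons. For all 3 genes the stem cell libraries lay between the other groups, with the basal progenitors lowest and called lower than the stem cells at -2.36 ± 0.36 (adjusted p = 4.63e-06), -2.73 ± 0.45 (adjusted p = 1.6e-05) and -1.60 ± 0.28 (adjusted p = 4.52e-05). Of the 19 postsynaptic genes 13 were called higher in the newborn neurons than in the basal progenitors, with a median difference of 1.49, and 2 were called lower in the basal progenitors than in the stem cells.

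Among the lower genes, most radial glia genes were low in the basal progenitors too. Of 24, 20 were called lower in the basal progenitors than in the stem cells (median -1.81) and 8 lower in the newborn neurons than in the basal progenitors (median -0.07). Sox2 was called in both comparisons, at -1.71 ± 0.28 (adjusted p = 1.78e-05) and -1.11 ± 0.28 (adjusted p = 0.00152). The stem cell marker Pax6 was called only in the latter, at -0.44 ± 0.31 (adjusted p = 0.492) and -1.95 ± 0.31 (adjusted p = 1.6e-06). Yap1 was at 33.3, 13.9 and 20.02 TPM in the stem cells, 3.37, 2.24 and 5.12 TPM in the basal progenitors and 3.98, 1.32 and 3.50 TPM in the newborn neurons. Hes1 was at 0.662, 0.301 and 1.85 TPM in the basal progenitors. For Yap1, basal progenitors minus stem cells gave -2.32 ± 0.30 (adjusted p = 1.5e-07) and newborn neurons minus basal progenitors -0.25 ± 0.30 (adjusted p = 0.601). G2 and M phase genes had the opposite pattern. Of 26, 0 were called between stem cells and basal progenitors and 24 were called lower in the newborn neurons than in the basal progenitors. Aurka was at 46.03, 21.3 and 25.8 TPM in the stem cells, 19.98, 24.1 and 33.5 TPM in the basal progenitors and 5.46, 3.85 and 4.56 TPM in the newborn neurons. Its differences in these comparisons were -0.21 ± 0.23 (adjusted p = 0.713) and -2.24 ± 0.23 (adjusted p = 1.25e-10). No difference of basal progenitors minus stem cells was called for Smo, Gli2, Tead2, Fzd2 and Pard3, at -0.36, -0.24, -0.18, 0.02 and 0.65. Newborn neurons minus basal progenitors gave -1.98, -2.24, -2.07, -2.07 and -2.40 for these genes.

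A few genes peaked in the basal progenitors. Neurod1, a factor of the step from progenitor to neuron, was at 86.9, 89.4 and 70.96 TPM in the stem cells, 238, 174 and 217 TPM in the basal progenitors and 33.8, 32.1 and 27.9 TPM in the newborn neurons. Slc17a6 was at 40.7, 37.04 and 47.1 TPM in the stem cells, 129, 90.3 and 115.3 TPM in the basal progenitors and 13.8, 8.26 and 14.1 TPM in the newborn neurons. Mfap4 was at 179, 162 and 146 TPM in the stem cells, 439, 333 and 367 TPM in the basal progenitors and 22.3, 15.8 and 23.5 TPM in the newborn neurons. In each of these the basal progenitor libraries were above all others. They differed by 1.33 ± 0.32 (adjusted p = 0.00477), 1.39 ± 0.36 (adjusted p = 0.00852) and 1.22 ± 0.26 (adjusted p = 0.00112) from the stem cells. The newborn neurons differed from them by -2.70 ± 0.32 (adjusted p = 4.47e-09), -3.13 ± 0.36 (adjusted p = 1.55e-09) and -4.15 ± 0.26 (adjusted p = 8.47e-17).

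**Figure D4:**
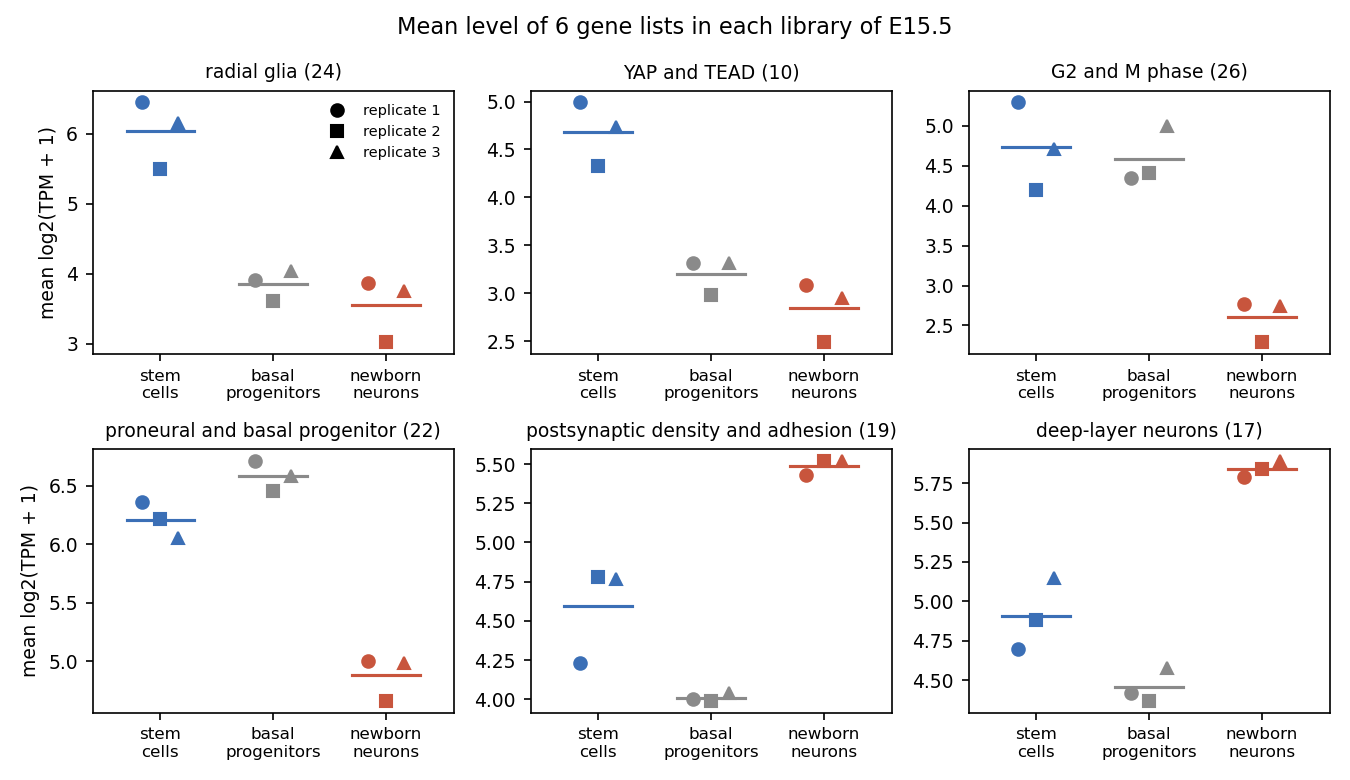
Mean log2(TPM + 1) over the tested members of 6 gene lists (number of members in brackets) in each library of E15.5, with symbols for the replicates and lines for group means; axes do not start at 0. Radial glia and YAP genes are low in both Tbr2::GFP groups, G2 and M phase genes only in the newborn neurons, and postsynaptic and deep-layer genes are lowest in the basal progenitors.

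Whether the difference at E15.5 was the same as later was tested by setting it against the mean of the newborn neuron minus stem cell differences at E16.5, E17.5 and E18.5. It was larger by at least 1, in the sense of more in favour of the newborn neurons, for 63 genes (0.414%) and smaller for 11 (0.0722%). These counts depend on single days and libraries. Without E18.5 they were 8 and 12 and without E16.5 190 and 28, while leaving out stem cell replicate 1 gave 34 and 8, leaving out newborn neuron replicate 3 gave 35 and 5, and leaving out newborn neuron replicate 2 gave 57 and 7. On the single days, 150 genes (0.985%) were called higher and 453 (2.97%) lower at E16.5, 69 (0.453%) and 564 (3.70%) at E17.5, and 1013 (6.65%) and 2013 (13.2%) at E18.5.

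Among the largest changes in favour of the newborn neurons at E15.5 were 4 genes with a lower mean in the newborn neurons of each later day. Cxcl14, a chemokine, had a mean of 16.3 ± 7.91 TPM (SD, n = 3) in the newborn neurons of E15.5 and 1.55 ± 0.733 TPM (SD, n = 3) in those of E18.5, with the stem cells at 2.75 ± 1.09 TPM (SD, n = 3) and 5.23 ± 0.582 TPM (SD, n = 3). Its difference was 2.15 at E15.5 and -1.32 at E18.5, and E15.5 against the later mean gave 2.85 ± 0.53 (adjusted p = 0.00106). Rgs8 and Rgs16, which switch off G-protein signals, changed sign likewise. Rgs16 was at 89.9, 26.8, 10.53 and 4.65 TPM in the newborn neurons of the 4 days. It was at 29.6, 16.6, 13.1 and 17.9 TPM in the stem cells. The difference ran from 1.57 to -1.75, and its test against later days gave 2.02 ± 0.21 (adjusted p = 1.98e-08). Rgs8 gave 2.09 ± 0.38 (adjusted p = 0.000855), and 1.44 (adjusted p = 0.134) without E18.5. Hs3st3b1 was at 11.4 TPM in the newborn neurons of E15.5 and 0.511 TPM in those of E18.5 and gave 2.09 ± 0.33 (adjusted p = 0.000102).

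In the other direction stood genes with a lower mean in the newborn neurons of E15.5 than in those of any later day. Kif26b was at 4.54, 20.2, 33.8 and 52.1 TPM in the newborn neurons of the 4 days, and at 27.5, 23.1, 35.4 and 40.9 TPM in the stem cells. It was called lower at E15.5 (-2.37) and not at E18.5 (0.33), and differed between the days by -2.36 ± 0.34 (adjusted p = 3.07e-05). Fat1, an atypical cadherin, had a mean of 3.52 TPM in the newborn neurons of E15.5 and 31.2 TPM in those of E18.5 and gave -1.67 ± 0.28 (adjusted p = 0.000308). The Wnt receptors Fzd1 and Fzd9 gave -1.46 ± 0.22 (adjusted p = 6.69e-05) and -1.57 ± 0.36 (adjusted p = 0.013). For Fzd1 both sides moved, with 20.5, 31.6, 33.2 and 35.1 TPM in the newborn neurons of the 4 days and 71.2, 50.1, 45.5 and 31.7 TPM in the stem cells. Fzd9 was not called without newborn neuron replicate 2 (-1.43, adjusted p = 0.0703) or 3 (-1.43, adjusted p = 0.0954), stem cell replicate 1 (-1.39, adjusted p = 0.103) or E18.5 (-1.49, adjusted p = 0.0691). Cldn3, a tight junction protein, gave -1.43 ± 0.38 (adjusted p = 0.0456) and lost the call without any one of 5 libraries of E15.5, at -1.07 (adjusted p = 0.344) without newborn neuron replicate 3, and without E18.5, at -0.92 (adjusted p = 0.435). Between E15.5 and E18.5 its mean went from 10.98 to 23.5 TPM in the newborn neurons and from 22.8 to 8.47 TPM in the stem cells.

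**Figure D5:**
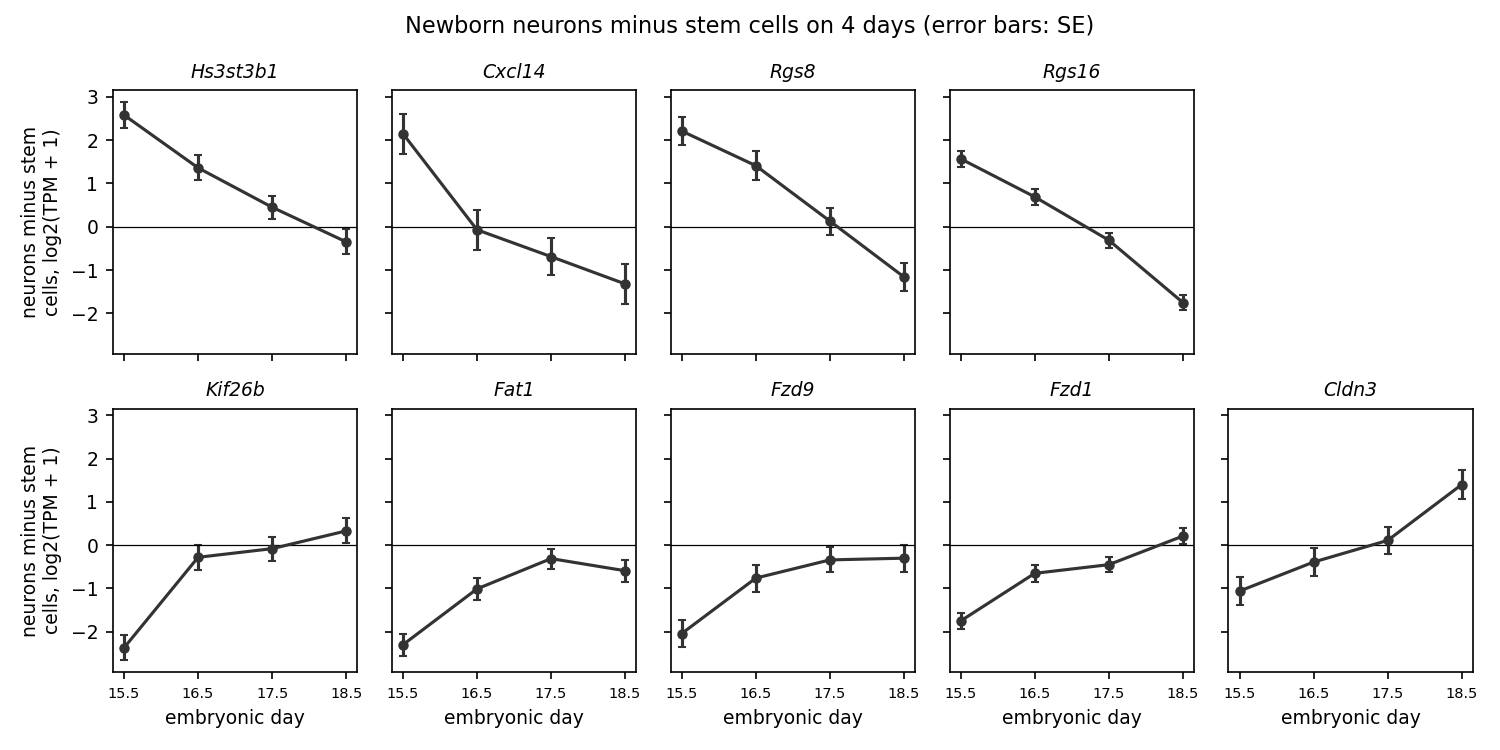
Newborn neurons minus stem cells in log2(TPM + 1) on 4 embryonic days for 4 genes (upper row) and 5 genes (lower row) among the largest changes between E15.5 and the later days (points, with the standard error from limma; lines join the days). Differences of the upper row fall from between 1.57 and 2.58 at E15.5 to between -1.75 and -0.35 at E18.5, and those of the lower row start at or below -1.06.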

How the data were processed

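Cells were dissociated with papain, sorted by GFP and sequenced as single 50-base reads from TruSeq libraries, per the labels' protocols. The authors deposited 1 table of TPM values for 23078 genes in 63 libraries of 19 groups. The submitters' processing notes name kallisto 0.43.0, GRCm38.p2 and mm10, with the transcript annotation not given in the sources used here. TPM keeps no read depth, so no counting error, interval or detection floor can be given, and the precision is that of 3 libraries a group.

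From this table, log2(TPM + 1) was fitted with limma 3.58.1 (R 4.3.3) with 1 mean for each of the 19 groups, a trend of the spread on the mean level and Benjamini-Hochberg adjustment over 15231 genes that reached 1 TPM in 3 or more libraries. All 63 libraries share 1 estimate of the spread for each gene. A call needs an adjusted p under 0.05 and a log2 difference of at least 1 in size. An exact permutation test of 3 against 3 libraries cannot go below p = 0.1 and was not used.

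The 45 gene lists and the comparison were chosen with earlier results of these data known. Named genes are the 10 called genes of largest difference in each direction whose mean reached 10 TPM in one of the groups, up to 4 called members of smallest adjusted p for each list in the direction with more calls and up to 2 in the other, 5 genes in each direction of the comparison of days, and a set of general markers. Some genes these rules name are not reported here. Symbols are those of the table, and 22361 of its gene IDs matched GENCODE vM21. Alternatives were other pseudocounts, filters, scalings, library weights, a replicate block, single libraries or days left out, and the E15.5 libraries alone. Same-numbered basal progenitor and newborn neuron libraries of E15.5 deviated together (correlations of 0.43, 0.37 and 0.15), so their comparison was also fitted with the number as a block. That fit and the one with only replicates 2 and 3 were chosen after seeing the data.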

Additional observations from a re-analysis of the deposited data

Results flagged for a closer look

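The difference between newborn neurons and stem cells at E15.5 was set against the mean of the same difference at E16.5 to E18.5, and 16 genes the text names differed by at least 1 (limma, adjusted p under 0.05). In favour of the newborn neurons at E15.5, the change was 2.85 for Cxcl14, 2.09 for Hs3st3b1, 2.09 for Rgs8 and 2.02 for Rgs16. Among further genes of the lists it was 1.68 for Sparcl1, 1.6 for Zfpm2, 1.5 for Bcl2, 1.31 for Kcnab1 and 1.23 for Drd1a. Gfap, at 1.53, is in this set with mean levels under 1 TPM in both cell types at E15.5, a stem cell mean of 30.9 ± 8.62 TPM (SD, n = 3) at E18.5 and a newborn neuron mean of 1.89 ± 0.244 TPM (SD, n = 3). Sparcl1 had stem cell means of 21.1, 39.7, 53.5 and 154 TPM and newborn neuron means of 74.7, 70.4, 88.6 and 82.3 TPM on the 4 days, so the stem cell side moved more. In the other direction the change was -2.36 for Kif26b, -1.67 for Fat1, -1.57 for Fzd9, -1.46 for Fzd1, -1.43 for Cldn3 and -1.34 for Lhx2. Lhx2 had newborn neuron means of 124, 211, 249.6 and 247 TPM on the 4 days.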

How the results depend on the processing

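Each called named gene kept its direction in the settings run. Of 187 named genes called, 62 lost the call in at least 1 of 17 settings and the others kept it wherever they were tested. By adjusted p alone, which has no size limit, no called gene could lose its call. Some low genes were not tested with a mean of at least 5 TPM. The counts of genes called higher and lower, 563 and 945, were 285 and 457 with a pseudocount of 5, 1574 and 3120 by adjusted p alone, and 335 to 678 and 765 to 1062 when each library was left out in turn. With only replicates 2 and 3, 300 genes were higher. Smad6, Tgfb2, Erbb4, Slit2, Kcnq5, Npas1, Nrxn3, Ctgf, Grm3, Grik1, Ndnf, Diap3, Pmaip1 and Lin28b fell under the size limit with the pseudocount of 5, and Gpr85, Vldlr, Ephb1, Scn3b and Rbfox1 were not called with only replicates 2 and 3. The share of calls that were higher was 37.3%, and 43.7% and 42.4% with quantile and median-of-ratios scaling. Of the comparison of days, the 63 larger and 11 smaller differences became 39 and 20 with a pseudocount of 0.1, 144 and 56 with library weights, and 190 and 28 without E16.5. The 63 became 32 with a pseudocount of 5, 19 with a mean of at least 5 TPM, 8 (against 12 smaller) without E18.5 and 28 with only replicates 2 and 3. Over left-out libraries the ranges were 34 to 59 and 5 to 16. The cause of these moves was not tested, apart from fewer genes or libraries where a setting removes them. Between newborn neurons and basal progenitors a block on the replicate number gave 1043 higher and 702 lower genes and changed no call of a named gene. Between newborn neurons and stem cells a replicate block gave 594 higher and 961 lower genes, and 120 and 29 in the comparison of days. Same-numbered stem cell and newborn neuron libraries deviated with correlations of 0.22, -0.02 and 0.17, so the numbers were not taken as pairs, although 2 of the 3 pairs passed 0.1.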
